A study of Mus musculus with 10 samples.

Results

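The genes of glycolysis and glycogen metabolism were followed in the overloaded mouse plantaris. The set was chosen with earlier results of these data known. It was a list of 38 genes, each matched to the array by symbol alone. Of these, 34 had a probe set assigned to that symbol alone, out of 22180 genes measured in this way, and the brightest such probe set stood for a gene. Gpi1, Eno1 and Pfkfb1 had no probe set carrying their symbol and Aldoa shared its only one with a second gene, so these 4 were not analysed here. Of the measured genes, 33 lay above the median gene in mean signal, and no gene was dropped for dim signal.

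All muscles came from male C57BL/6 mice, with no age stated. The plantaris is a calf muscle, and it was overloaded by synergist ablation, the removal of muscles that share its work. The 5 groups were plantaris with no ablation and no inhibitor, plantaris after 3 d or 10 d of overload with no inhibitor, and plantaris after 3 d or 10 d of overload in mice given a PDGF inhibitor that the labels do not name (PDGF, platelet-derived growth factor, drives the division of connective tissue cells). No group received the inhibitor without overload. Each group had 2 arrays, and each array held equal amounts of RNA from 4 muscles, so a value is the average of a pool. The labels do not say that a group's 2 pools hold different mice, and p-values cover the spread of pools alone, which may be partly technical.

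Glycolysis splits glucose into pyruvate in the cytosol and yields ATP without oxygen. Muscle draws glucose from blood through membrane transporters and from its own glycogen store, which phosphorylase breaks down when phosphorylase kinase activates it. Lactate dehydrogenase turns pyruvate into lactate, which leaves or enters the fibre through monocarboxylate transporters. The plantaris of mice is made mostly of fast fibres, which depend heavily on this pathway, and several of its steps have a muscle isoform and another that is more common in other cells.

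Expression is given as log2 units of the deposited array values, so a difference of 1 unit is a doubling. The array medians ran from 2.40 to 2.45, and the fibre genes that define the labelled tissue were bright in every pool, with a log2 summed level of 8 markers between 14.67 and 14.92. Macrophage markers differed between the groups, and the log2 summed level of 10 of them was 8.41 and 8.71 without overload, 11.94 and 11.75 at 3 d, and 10.16 and 10.74 at 10 d. One of the 3 d pools without inhibitor (pool 1) stood apart, with the granulocyte precursor genes Elane and Mpo at 5.21 and 5.02 against at most 1.75 in the other pools. Since whole muscle was measured, fewer fibres and less RNA per fibre cannot be told apart.

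The first comparison asked how the pathway stood after 3 d of overload. Of the 34 genes, 20 fell and 3 rose against no overload (adjusted p under 0.05, limma with Benjamini-Hochberg adjustment over all genes). Over all 22180 genes, 8.18% fell, 9.31% rose and 17.5% changed in either direction. Among the 11090 genes above the median in mean signal, tested alone, 40.6% were called. Of the members, 33 lay above that median. Unadjusted p lay under 0.05 for 25 members and for 29.3% of all genes. The median change was -0.64 over the members and -0.04 over all genes, and 27 members lay below 0. The falls reached 4.54-fold in Gpd1, and covered the lactate dehydrogenases Ldha and Ldhb, the lactate transporters Slc16a1 and Slc16a3, glycogen synthase and the phosphorylase kinase subunits Phka1, Phkb and Phkg1. The rises were Slc2a1, Pfkp and Pgam1. In 30 of the 34 genes the 2 pools at 3 d lay apart from the 2 without overload, against 55.8% of all genes.

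**Figure D1:**
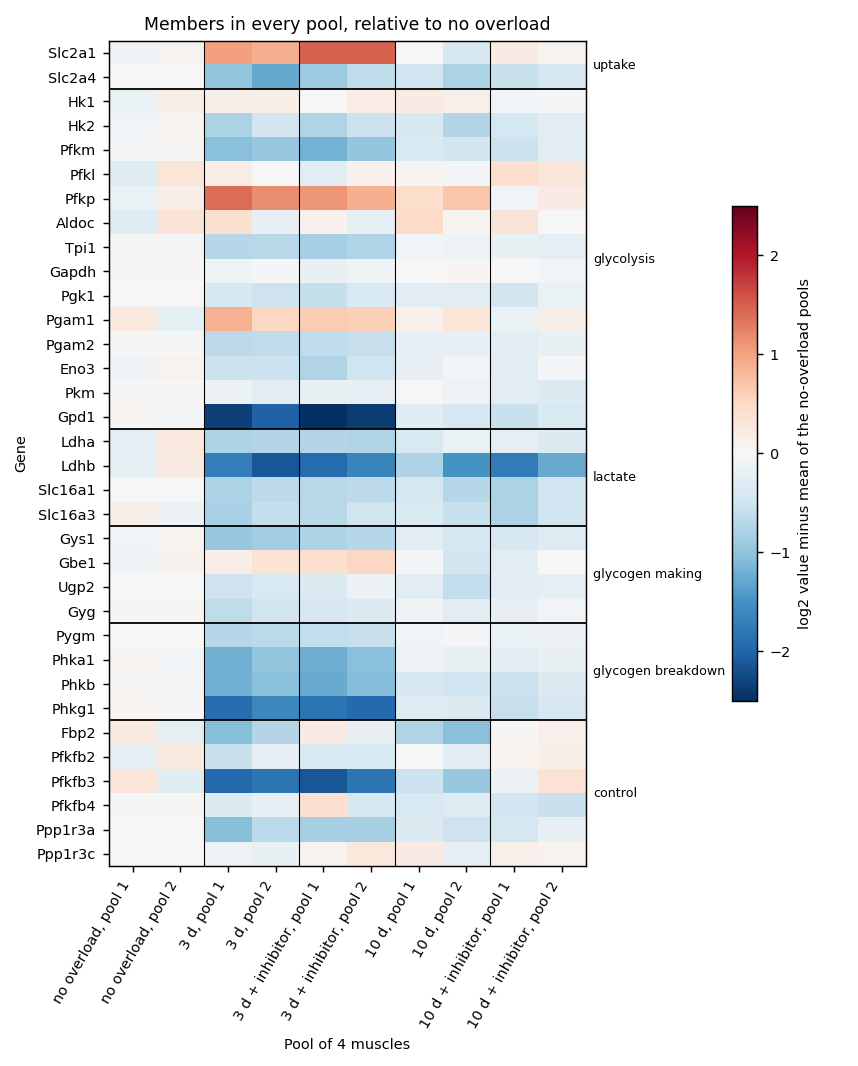
Each of the 34 measured genes (rows, grouped by role) in each of the 10 pools (columns), as the log2 value minus the mean of the 2 pools without overload; blue is lower and red higher. The 4 columns of 3 d of overload are mostly blue, deepest in Gpd1, Ldhb, Phkg1 and Pfkfb3 and red in Slc2a1, Pfkp and Pgam1, and the 10 d columns are paler.

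Glucose enters the fibre through GLUT4 (Slc2a4), the transporter that insulin and contraction bring to the membrane, and through GLUT1 (Slc2a1), which most cells use for basal uptake. Slc2a4 lay at 9.49 and 9.53 without overload, 8.54 and 8.23 at 3 d, 8.60 and 8.86 at 3 d with the inhibitor, 9.02 and 8.71 at 10 d and 8.95 and 9.10 at 10 d with the inhibitor. All overloaded pools were below both pools without overload, and the fall at 3 d was 2.17-fold (log2 -1.12 ± 0.17, adjusted p = 0.00304). Slc2a1 lay at 6.56 and 6.74 without overload, 7.68 and 7.54 at 3 d, 8.13 and 8.12 at 3 d with the inhibitor, 6.63 and 6.25 at 10 d and 6.85 and 6.75 at 10 d with the inhibitor. The 4 pools of 3 d stood above all others, and the rise at 3 d without inhibitor was 1.94-fold (log2 0.96 ± 0.16, adjusted p = 0.00438). A dim second probe set of Slc2a1 stayed between 2.0 and 2.28 in all pools and changed by -0.02, and the mean of its probe sets rose by 0.47 (adjusted p = 0.0343).

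Phosphofructokinase commits sugar to glycolysis, and its muscle subunit is encoded by Pfkm, its liver subunit by Pfkl and its platelet subunit by Pfkp. Pfkm lay at 10.33 and 10.38 without overload, 9.31 and 9.41 at 3 d, 9.17 and 9.40 at 3 d with the inhibitor, 9.97 and 9.90 at 10 d and 9.82 and 10.09 at 10 d with the inhibitor. It fell 2.0-fold at 3 d (log2 -1.0 ± 0.15, adjusted p = 0.00245), and the 4 pools of 3 d were the lowest. Pfkp lay at 5.09 and 5.43 without overload, 6.67 and 6.43 at 3 d, 6.36 and 6.16 at 3 d with the inhibitor, 5.71 and 5.95 at 10 d and 5.20 and 5.47 at 10 d with the inhibitor. Here the 4 pools of 3 d were the highest, and the rise was 2.44-fold (log2 1.29 ± 0.18, adjusted p = 0.00213). Pfkl lay at 3.82 and 4.43 without overload, 4.30 and 4.11 at 3 d, 3.84 and 4.24 at 3 d with the inhibitor, 4.20 and 4.09 at 10 d and 4.54 and 4.43 at 10 d with the inhibitor. Its groups overlapped, and its change of 0.08 ± 0.22 was the smallest of the uncalled glycolytic genes. Pfkp rose in the same pools in which macrophage markers were highest, and the part of those cells in its rise was not tested.

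Gpd1, which turns the triose phosphate of glycolysis into glycerol phosphate while oxidising NADH, changed most of all members. It lay at 8.39 and 8.28 without overload, 6.00 and 6.31 at 3 d, 5.60 and 5.97 at 3 d with the inhibitor, 8.03 and 7.92 at 10 d and 7.78 and 7.96 at 10 d with the inhibitor. The 4 pools of 3 d were separated from all others by more than 1 unit, and the fall at 3 d was 4.54-fold (log2 -2.18 ± 0.17, adjusted p = 1.89e-04). A dimmer second probe set of Gpd1 also fell, by 0.92. Triose phosphate isomerase (Tpi1) lay at 10.92 and 10.86 without overload, 10.17 and 10.20 at 3 d, 10.06 and 10.14 at 3 d with the inhibitor, 10.82 and 10.76 at 10 d and 10.70 and 10.66 at 10 d with the inhibitor. It fell 1.63-fold (log2 -0.70 ± 0.12, adjusted p = 0.00485), and its 10 d pools lay between the 3 d pools and those without overload.

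Phosphoglycerate mutase has a muscle form (Pgam2) and a form of most other tissues (Pgam1). Pgam2 lay at 8.97 and 8.92 without overload, 8.30 and 8.32 at 3 d, 8.31 and 8.37 at 3 d with the inhibitor, 8.74 and 8.75 at 10 d and 8.69 and 8.77 at 10 d with the inhibitor. The pools of 3 d were again the lowest, and the fall was 1.56-fold (log2 -0.64 ± 0.12, adjusted p = 0.00718). Pgam1 lay at 4.97 and 4.48 without overload, 5.60 and 5.25 at 3 d, 5.37 and 5.32 at 3 d with the inhibitor, 4.85 and 5.02 at 10 d and 4.57 and 4.87 at 10 d with the inhibitor, a rise of 0.70 ± 0.20 at 3 d (adjusted p = 0.0486). Which of its probe sets measures Pgam1 is not settled, and its direction and the comparison of the 2 forms below are uncertain, because its other, dimmer probe set went the opposite way, by -0.62, and the mean of both changed by 0.04 (adjusted p = 0.912).

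Hexokinase II (Hk2), which traps glucose as its phosphate, fell 1.55-fold at 3 d (log2 -0.63 ± 0.18, adjusted p = 0.0430), and the muscle enolase Eno3 fell 1.44-fold (log2 -0.53 ± 0.15, adjusted p = 0.0434). The remaining glycolytic genes did not pass at 3 d. Pgk1, which makes ATP from bisphosphoglycerate, gave -0.46 ± 0.15 (adjusted p = 0.0667), pyruvate kinase (Pkm) -0.20 ± 0.13, Hk1 0.15 ± 0.15 and the aldolase Aldoc 0.10 ± 0.29. Aldoc was dim, at 1.95 to 2.75 over the pools against a median gene mean of 3.13, and Aldoa was not analysed. Gapdh, often used as a reference gene, gave -0.08 ± 0.12. It ranged only from 11.64 to 11.86 over the 10 pools, near the highest value of the whole table, 12.71. Of its other probe sets, one lay at 11.67 to 11.84 and a dimmer one changed by -0.65 at 3 d, and Gapdh has near-identical copies in the genome that probes may not separate.

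Lactate dehydrogenase is built from a muscle subunit (Ldha) and a heart subunit (Ldhb). Ldhb lay at 8.26 and 8.69 without overload, 6.78 and 6.35 at 3 d, 6.55 and 6.83 at 3 d with the inhibitor, 7.71 and 6.98 at 10 d and 6.73 and 7.21 at 10 d with the inhibitor. It was lower in all 8 overloaded pools than in both others, with a 3.76-fold fall at 3 d (log2 -1.91 ± 0.29, adjusted p = 0.00267). Ldha lay at 6.16 and 6.66 without overload, 5.62 and 5.68 at 3 d, 5.67 and 5.67 at 3 d with the inhibitor, 6.04 and 6.24 at 10 d and 6.19 and 6.06 at 10 d with the inhibitor. Its fall was smaller, 1.70-fold at 3 d (log2 -0.76 ± 0.18, adjusted p = 0.0191). Ldha, the muscle subunit, read below Ldhb in every pool, and how well its only probe set measures Ldha was not tested.

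Lactate crosses the membrane through MCT1 (Slc16a1), found mainly in oxidative fibres, and MCT4 (Slc16a3), the exporter of glycolytic cells. Slc16a1 lay at 8.61 and 8.61 without overload, 7.82 and 7.95 at 3 d, 7.92 and 7.96 at 3 d with the inhibitor, 8.18 and 7.90 at 10 d and 7.83 and 8.11 at 10 d with the inhibitor. It fell 1.66-fold at 3 d (log2 -0.73 ± 0.16, adjusted p = 0.0128). Slc16a3 lay at 8.03 and 7.73 without overload, 7.07 and 7.29 at 3 d, 7.18 and 7.38 at 3 d with the inhibitor, 7.50 and 7.32 at 10 d and 7.09 and 7.38 at 10 d with the inhibitor, and fell 1.62-fold at 3 d (log2 -0.70 ± 0.18, adjusted p = 0.0260). Slc16a1 and Slc16a3 were below the pools without overload in all 8 overloaded pools.

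Of the 4 genes that build glycogen, 2 fell at 3 d. Glycogen synthase (Gys1), which lengthens the chains, lay at 9.98 and 10.10 without overload, 9.10 and 9.18 at 3 d, 9.27 and 9.34 at 3 d with the inhibitor, 9.77 and 9.60 at 10 d and 9.62 and 9.72 at 10 d with the inhibitor. The fall of Gys1 at 3 d was 1.87-fold (log2 -0.90 ± 0.13, adjusted p = 0.00238). Glycogenin (Gyg), the protein primer of a new glycogen particle, fell 1.46-fold (log2 -0.54 ± 0.14, adjusted p = 0.0273). Ugp2, which makes the activated glucose that the synthase uses, gave -0.44 ± 0.15 (adjusted p = 0.0885). The branching enzyme Gbe1 lay at 8.38 and 8.61 without overload, 8.66 and 8.85 at 3 d, 8.89 and 9.01 at 3 d with the inhibitor, 8.44 and 8.03 at 10 d and 8.21 and 8.50 at 10 d with the inhibitor. Its 3 d pools were slightly higher than those without overload and the change did not pass (0.26 ± 0.19, adjusted p = 0.413).

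The 4 listed genes of glycogen breakdown fell at 3 d. Other forms of these enzymes are described with the neighbouring genes. Phkg1, the catalytic subunit of phosphorylase kinase in muscle, lay at 9.95 and 9.86 without overload, 7.99 and 8.30 at 3 d, 8.08 and 7.97 at 3 d with the inhibitor, 9.59 and 9.57 at 10 d and 9.32 and 9.50 at 10 d with the inhibitor. Its fall at 3 d was 3.38-fold (log2 -1.76 ± 0.15, adjusted p = 2.37e-04), and the 4 pools of 3 d were at least 1 unit below all others. The regulatory subunit Phka1 lay at 10.19 and 10.05 without overload, 8.93 and 9.13 at 3 d, 8.91 and 9.08 at 3 d with the inhibitor, 9.99 and 9.94 at 10 d and 9.83 and 9.94 at 10 d with the inhibitor, and fell 2.13-fold at 3 d (log2 -1.09 ± 0.14, adjusted p = 0.00130). The other regulatory subunit, Phkb, lay at 10.01 and 9.94 without overload, 8.77 and 8.93 at 3 d, 8.71 and 8.89 at 3 d with the inhibitor, 9.57 and 9.48 at 10 d and 9.44 and 9.63 at 10 d with the inhibitor, and fell 2.19-fold (log2 -1.13 ± 0.14, adjusted p = 0.00118). Phosphorylase itself (Pygm) lay at 11.95 and 11.98 without overload, 11.25 and 11.29 at 3 d, 11.36 and 11.39 at 3 d with the inhibitor, 11.91 and 11.92 at 10 d and 11.79 and 11.83 at 10 d with the inhibitor. It fell less, 1.62-fold (log2 -0.70 ± 0.12, adjusted p = 0.00462), and its values sit close to the top of the array's scale.

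Among the 6 measured genes that set the rate of the pathway, 3 fell at 3 d. Pfkfb3 makes and removes the allosteric activator of phosphofructokinase. It lay at 7.61 and 6.99 without overload, 5.37 and 5.48 at 3 d, 5.16 and 5.49 at 3 d with the inhibitor, 6.76 and 6.35 at 10 d and 7.16 and 7.67 at 10 d with the inhibitor. The pools of 3 d, with and without inhibitor, were the lowest, and the fall was 3.68-fold (log2 -1.88 ± 0.26, adjusted p = 0.00184). Its relatives Pfkfb2 (-0.38 ± 0.19) and Pfkfb4 (-0.27 ± 0.23) did not pass. Fbp2, the muscle fructose bisphosphatase, which reverses the phosphofructokinase step, lay at 7.57 and 7.12 without overload, 6.28 and 6.61 at 3 d, 7.56 and 7.13 at 3 d with the inhibitor, 6.59 and 6.30 at 10 d and 7.39 and 7.47 at 10 d with the inhibitor. The 4 overloaded pools without inhibitor lay below the other 6, and the fall at 3 d was 1.87-fold (log2 -0.90 ± 0.22, adjusted p = 0.0221).

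Ppp1r3a and Ppp1r3c bring protein phosphatase 1 to glycogen, where it switches the synthase on and phosphorylase off. Ppp1r3a lay at 10.40 and 10.43 without overload, 9.34 and 9.77 at 3 d, 9.58 and 9.59 at 3 d with the inhibitor, 10.07 and 9.90 at 10 d and 9.98 and 10.23 at 10 d with the inhibitor, and fell 1.82-fold at 3 d (log2 -0.86 ± 0.17, adjusted p = 0.00937). Ppp1r3c lay at 8.79 and 8.76 without overload, 8.64 and 8.60 at 3 d, 8.86 and 9.04 at 3 d with the inhibitor, 8.98 and 8.57 at 10 d and 8.90 and 8.87 at 10 d with the inhibitor. Its change of -0.16 ± 0.16 at 3 d did not pass.

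**Figure D2:**
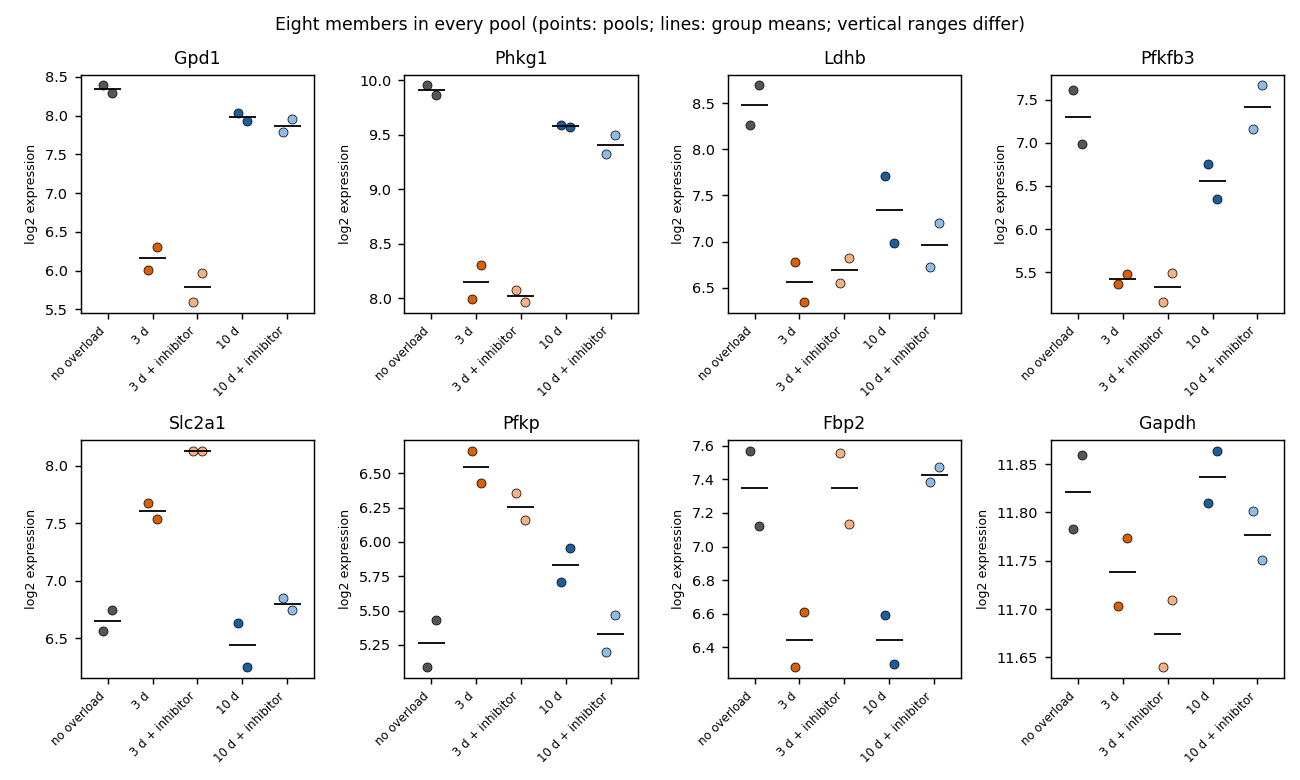
Log2 expression of 8 members in every pool; points are pools, short lines are means of 2 pools, and the vertical ranges differ between panels. Gpd1, Phkg1 and Pfkfb3 are lowest at 3 d, Slc2a1 and Pfkp highest at 3 d, Fbp2 is low only in the overloaded pools without inhibitor, and Gapdh stays within 11.64 and 11.86.

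Of the 23 calls at 3 d, 14 held whichever array was left out. Without 3 d overload pool 1, the pool that stood apart, 14 calls were left, while the share called over all genes went from 17.5% to 9.68%, and the calls of Hk2, Pgam1, Eno3, Ldha, Slc16a1, Slc16a3, Gyg, Fbp2 and Ppp1r3a were lost (adjusted p of 0.0644 to 0.247). Those of Hk2, Eno3 and Gyg were also lost without its partner or either pool without overload, and no omission cost a call outside these 9. Pgam1 was lost in 9 of the 10 omissions and changed by 0.45 (adjusted p = 0.243) without no-overload pool 2. The array medians over named genes were unequal, with a group mean of -0.12 without overload and 0.07 at 3 d relative to a common median. Shifting every array to that common median moved the members' median change to -0.83 and gave 22 falls and 2 rises, with Pgk1 and Ugp2 added and Pgam1 lost. The share called over all genes was then 21.9%.

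Markers of fibres and of other cells were read beside these falls. Of 8 fibre markers none passed at 3 d, and their median change was -0.19. Of these 8, Myh4, Myh1, Tnnt3, Actn3 and Atp2a1 also stand in the fast fibre list, so the lists are not separate readings. Acta1, the actin of skeletal muscle, changed by 0.03 ± 0.12 and creatine kinase (Ckm) by -0.44 ± 0.14 (adjusted p = 0.0609). Of 8 fast fibre markers, Mylk2 (-1.28 ± 0.16), Pvalb (-0.80 ± 0.13) and Tnni2 (-0.44 ± 0.13) fell, with a list median of -0.37. The log2 summed level of these fast markers was 14.58 and 14.59 without overload, 14.29 and 14.28 at 3 d, and 14.60 and 14.57 at 10 d. Of 8 slow fibre markers, 2 were lower, Myl3 (-0.98 ± 0.28) and Myh7 (-1.40 ± 0.41), and 2 were higher, Tnnt1 (0.65 ± 0.15) and Casq2 (1.91 ± 0.18), with a list median of 0.38. All 10 macrophage markers and 6 of 7 markers of dividing cells rose at 3 d. What part these shifts in cell makeup had in the falls of the glycolytic genes was not tested.

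By 10 d of overload no member passed against no overload, where 5.13% of all genes did (3.90% higher and 1.23% lower). Unadjusted p lay under 0.05 for 13 of the 34 members and for 20.3% of all genes, and the members' median change was -0.27. The lowest adjusted p values were those of Fbp2 (log2 -0.90 ± 0.22, adjusted p = 0.0527), Ldhb (-1.13 ± 0.29, adjusted p = 0.0615), Slc2a4 (-0.64 ± 0.17, adjusted p = 0.0727) and Slc16a1 (-0.57 ± 0.16, adjusted p = 0.0737). The 2 pools at 10 d lay apart from those without overload in 22 members and in 50.2% of all genes. Beside this, 4 of 8 slow fibre markers were higher at 10 d than without overload (median 1.06), and no fast fibre marker passed. The count of 0 changed with the variance model. With a prior that follows the signal level, 10 members fell at 10 d, namely Fbp2, Slc2a4, Slc16a1, Phkb, Ldhb, Ugp2, Gys1, Hk2, Pfkm and Ppp1r3a (adjusted p of 0.00733 to 0.0439), and 9.45% of all genes were called. Restricting the test to the brighter genes gave 5 falls (17.1% of all genes tested), and shifting the arrays to a common median also gave 5 (7.10% of all genes). Without 10 d overload pool 1, Ldhb was lower by 1.49 and passed (adjusted p = 0.0316).

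Between 3 d and 10 d of overload, 7 members rose and 1 fell, where 2.70% of all genes rose, 3.38% fell and 6.08% were called in either direction. Unadjusted p lay under 0.05 for 20 members and 20.7% of all genes, and the groups lay apart in 24 members and 48.7% of all genes. Gpd1 rose 3.53-fold (log2 1.82 ± 0.17, adjusted p = 0.00250) and Phkg1 2.70-fold (log2 1.43 ± 0.15, adjusted p = 0.00305). Phka1 rose 1.91-fold, Phkb 1.60-fold and Pygm 1.56-fold, so that the 4 listed genes of glycogen breakdown were all higher at 10 d than at 3 d. Pfkfb3 rose 2.19-fold and Tpi1 1.52-fold. Slc2a1 was the gene that fell, 2.24-fold (log2 -1.17 ± 0.16, adjusted p = 0.00746), and with the mean of its probe sets by -0.58 (adjusted p = 0.0332). The calls of Gpd1 and Phkg1 held in every omission. Without 3 d overload pool 1 only these were left, since Slc2a1, Tpi1, Pygm, Phka1, Phkb and Pfkfb3 had adjusted p values of 0.0582 to 0.177, and 0.983% of all genes were called. There were 4 calls without its partner (2.11% of all genes), 3 without 10 d overload pool 1 (2.21%) and 4 without 10 d overload pool 2 (3.96%). The 3 comparisons among no overload, 3 d and 10 d share pools, so their values are not independent of each other. Markers of cell types also moved here. Fast fibre markers were higher at 10 d in 3 of 8 (median 0.29) and slow fibre markers in 3 of 8 (0.53), and macrophage markers were lower in 5 of 10 (-1.23), markers of dividing cells in 6 of 7 (-1.54) and neutrophil markers in 2 of 8 (-1.96). Their part in these rises was not tested.

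**Figure D3:**
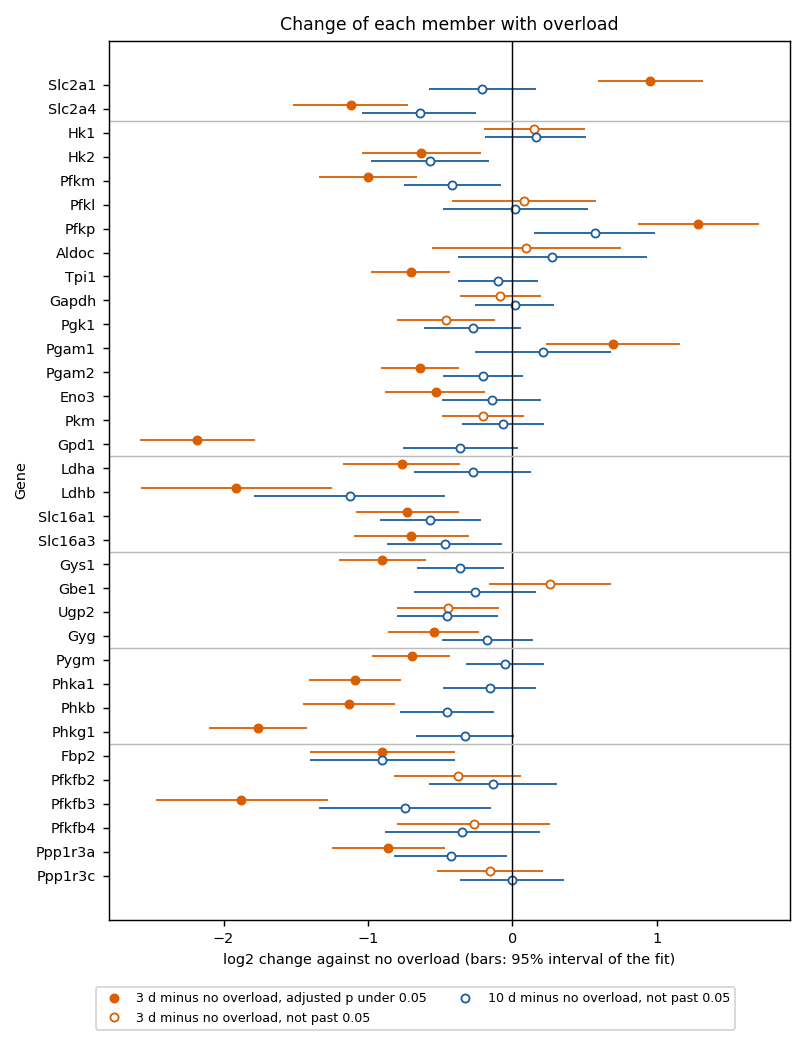
Log2 change of each member against no overload at 3 d (orange) and 10 d (blue), with the 95% interval of the limma fit; filled points passed an adjusted p of 0.05. At 3 d the filled points span -2.18 (Gpd1) to 1.29 (Pfkp), and no 10 d point is filled.

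Isoforms of one step were next compared within each array, as the log2 difference between the isoform usual in fast muscle and the other, which removes whatever acts on both alike. Of 8 pairs 6 could be formed, since Aldoa and Eno1 were not measured. The 8 overloaded pools, both times with and without inhibitor, were taken as 1 set, though they come from unlike groups. The difference of Pfkm and Pfkp was 5.09 ± 0.21 (SD, n = 2 pools) without overload. It was 2.64 and 2.98 at 3 d, 2.81 and 3.24 at 3 d with the inhibitor, 4.26 and 3.95 at 10 d and 4.62 and 4.62 at 10 d with the inhibitor. Over the overloaded pools this gave 3.64 ± 0.82 (SD, n = 8 pools), an SD that includes the differences between those groups. The difference of Slc2a4 and Slc2a1 was 2.93 and 2.78 without overload, 0.87 and 0.69 at 3 d and 2.38 and 2.46 at 10 d. The Hk2 and Hk1 difference was lower by 0.64 with overload and that of Pfkm and Pfkl by 0.82. Ldha read below Ldhb in every pool, unlike the first isoform of each other pair. Their difference moved the other way, with -2.10 and -2.03 without overload and -1.67 to -0.54 in the 8 overloaded pools. Ldhb was the further reduced. In the 5 pairs named so far all overloaded pools lay on one side of the pools without overload. The exact two-sided permutation p was 0.0444 for each, the smallest that 2 pools against 8 allow, and 0.0533 after adjustment over the 6 pairs, so none passed. For Pgam2 and Pgam1 the groups overlapped (p = 0.0889, exact permutation test, adjusted p = 0.0889). With the mean of each gene's probe sets, which joins the opposed Pgam1 probe sets, this pair did not overlap (-0.65). All 6 pairs then stood at the smallest exact permutation p and their adjusted p was 0.0444, a step that the Pgam pair alone made for the other 5.

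**Figure D4:**
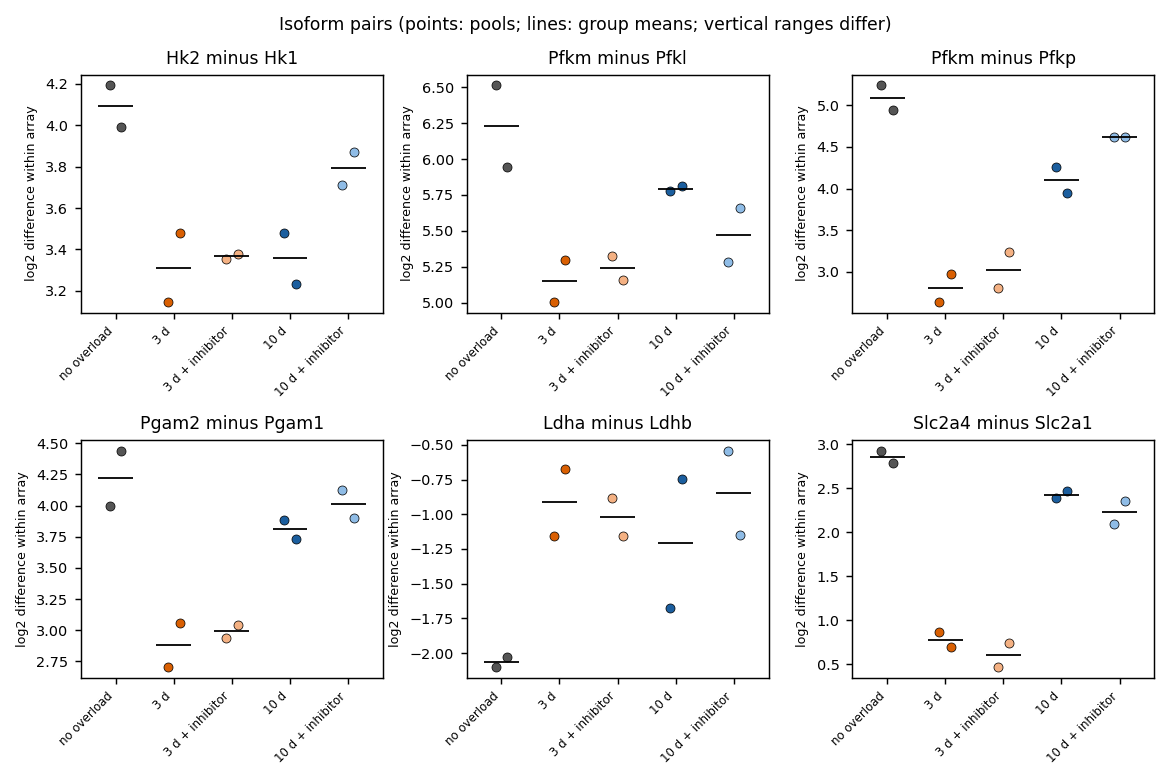
Log2 difference between the isoforms of each pair within an array, by group; points are pools, lines are means of 2 pools, and vertical ranges differ. For Pfkm minus Pfkp, Pgam2 minus Pgam1 and Slc2a4 minus Slc2a1 the 3 d pools are the lowest, and Ldha minus Ldhb is higher in all overloaded pools, from -1.67 to -0.54.

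The next question was whether inhibiting PDGF signalling changed the pathway during overload. No member passed at 3 d or at 10 d, in the mean of both effects or in their difference. Over all genes the shares called were 0% at 3 d, 0.104% at 10 d (0.0225% higher, 0.0812% lower), 0.289% for the mean (0.0631% higher, 0.225% lower) and 0% for the difference, so few genes of any kind passed in these comparisons. Unadjusted p lay under 0.05 for 2, 3, 3 and 1 of the 34 members, against 9.07%, 10.6%, 12.7% and 6.47% of all genes. The members' median effect was 0.00 at 3 d and -0.02 at 10 d. The pools with inhibitor lay apart from those without in 12 members at 3 d and 15 at 10 d, where 40.0% and 41.2% of all genes did. The 95% interval of a member's effect at either time, not adjusted over genes, reached 0.27 to 0.66 log2 units to each side. Smaller effects could not be told from none, and larger ones could also miss the adjusted threshold. Fbp2 missed it at 0.90 and 0.98.

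Fbp2 had the largest inhibitor effect of the members. It was 1.87-fold higher with the inhibitor at 3 d (log2 0.90 ± 0.22, adjusted p = 0.293) and 1.97-fold higher at 10 d (log2 0.98 ± 0.22, adjusted p = 0.176). The 4 pools with inhibitor spanned 7.13 to 7.56, the 4 overloaded pools without it 6.28 to 6.61, and the pools without overload lay at 7.57 and 7.12. The fall of Fbp2 with overload and its inhibitor effect share the overloaded pools without inhibitor, so they are not independent of each other. The mean effect over both times was 0.94 ± 0.15 (95% interval 0.59 to 1.29, adjusted p = 0.0572). It just missed the threshold, and over 17 other analyses the adjusted p ran from 0.0059 to 0.17. It passed with the variance prior that follows the signal level, among the brighter genes (0.0304) and without 10 d overload pool 1 (0.0405).

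Slc2a1 was also higher with the inhibitor, by 0.52 ± 0.16 at 3 d and 0.36 ± 0.16 at 10 d, and its mean effect of 0.44 ± 0.11 did not pass (adjusted p = 0.160). With the variance prior that follows the signal level it did (0.0356), and over 17 other analyses the adjusted p ran up to 0.36. Pfkp went the other way, by -0.29 ± 0.18 at 3 d and -0.50 ± 0.18 at 10 d, and did not pass (mean effect -0.39 ± 0.13, adjusted p = 0.256). Beside it, the log2 summed level of the macrophage markers with the inhibitor was 11.62 and 11.39 at 3 d and 9.81 and 10.00 at 10 d. These lay below the pools without it at each time, and none of the 10 markers passed at either time or for the mean effect. For the mean effect, 5 of 7 markers of dividing cells were lower and 1 of 8 neutrophil markers was higher. At 10 d, 1 of 7 and 2 of 8 passed in the same directions. The part of these cells in the inhibitor effects on members was not tested. Pfkfb3 gave -0.10 ± 0.26 at 3 d and 0.86 ± 0.26 at 10 d, and the difference between these effects, 0.95 ± 0.37, did not pass (adjusted p = 0.716). The 10 d pools with inhibitor held Pfkfb3 at 7.16 and 7.67, above the lower of the pools without overload.

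**Figure D5:**
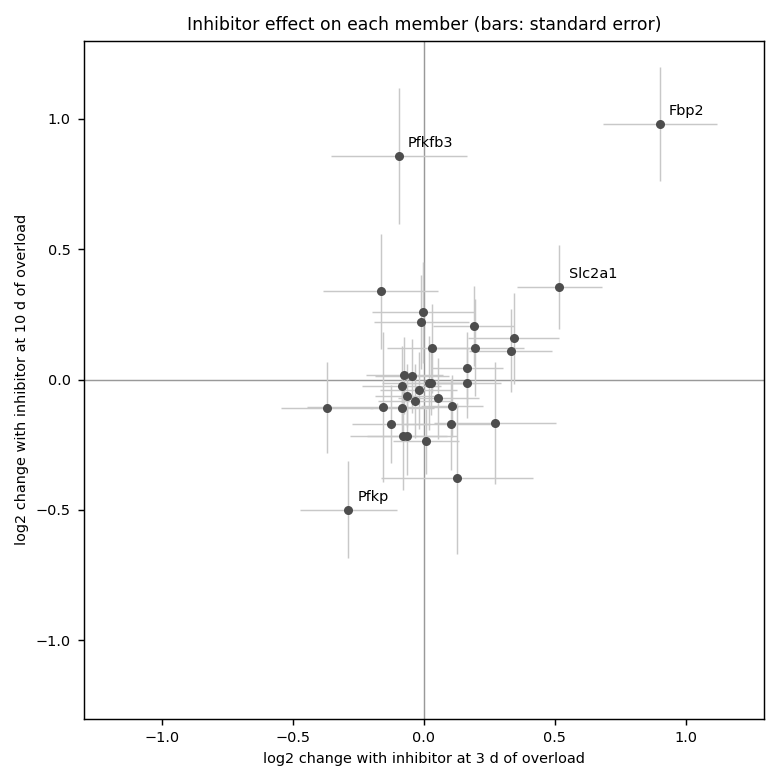
Inhibitor effect on each of the 34 members at 3 d (horizontal) and 10 d (vertical), as log2 change with standard errors. Most points lie near 0; Fbp2 lies at 0.90 and 0.98, Slc2a1 at 0.52 and 0.36, Pfkp at -0.29 and -0.50, and Pfkfb3 at -0.10 and 0.86, and none passed the test.

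Neighbouring steps of sugar metabolism were read from other lists. Of 13 genes that bring pyruvate into mitochondria, 8 fell and 1 rose at 3 d, with a median of -0.60. The largest falls were Pdpr (-1.29 ± 0.15) and Pdp1 (-1.17 ± 0.19), parts of the phosphatase that activates pyruvate dehydrogenase, and Pdha1 (-0.87 ± 0.17), a subunit of that enzyme. The rise was the inhibiting kinase Pdk3 (1.06 ± 0.20), which was also higher at 10 d (0.94 ± 0.20, adjusted p = 0.0343). Pdk3 was dim, at 3.24 to 4.51 over the pools, and the other inhibiting kinases read lower at 3 d. Pdk2 lay at 9.92 and 10.04 without overload and at 9.10 and 9.26 at 3 d. Pdk4 lay at 9.94 and 9.79 without overload and at 9.35 and 9.36 at 3 d. For Pdk1 these values were 6.66 and 6.80, and 6.32 and 6.44.

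Of 10 further genes of sugar and lactate transport, 5 fell and 1 rose at 3 d, with a median of -0.58. Tbc1d4, which holds GLUT4 inside the cell until insulin acts, fell by 1.5 ± 0.14 on the log2 scale at 3 d and by 1.18 ± 0.14 at 10 d (adjusted p = 0.00419). The transporters Slc2a12 (-1.72 ± 0.19) and Slc2a3 (-1.06 ± 0.28) and the glucose uptake inhibitor Txnip (-0.93 ± 0.14) fell as well, and the lactate transporter Slc16a7 (0.66 ± 0.14) rose. Slc16a7 was the only gene of these neighbouring lists called for the mean inhibitor effect (-0.73 ± 0.10, adjusted p = 0.0358).

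Of 12 other glycolytic genes, Bpgm (-1.26 ± 0.18), Tigar (-1.17 ± 0.15), Ldhd (-0.90 ± 0.20) and Gpd2 (-0.77 ± 0.15) fell at 3 d and none rose, with a list median of -0.18. Gpd2 is the mitochondrial partner of Gpd1 in the glycerol phosphate shuttle. Of 18 other glycogen genes, 4 fell and 2 rose, also with a median of -0.18. The falls were led by Epm2a (-1.5 ± 0.17), the glycogen phosphatase laforin, and included its partner Nhlrc1 (-0.71 ± 0.19), the ubiquitin ligase malin, and Pgm2l1 (-0.68 ± 0.14). The rises were Pgm2 (0.87 ± 0.19) and Phka2 (0.63 ± 0.15), the liver form of the phosphorylase kinase subunit that Phka1 encodes in muscle. Of the other forms of the breakdown enzymes, the brain and liver phosphorylases Pygb (0.68 ± 0.21) and Pygl (0.66 ± 0.32) and the kinase subunit Phkg2 (-0.40 ± 0.17) did not pass at 3 d. At 10 d Pygb was higher than without overload (0.93 ± 0.21, adjusted p = 0.0423), and Pgm2l1 (-0.85 ± 0.14, adjusted p = 0.0157) and Tigar (-0.85 ± 0.15, adjusted p = 0.0157) were lower. From 3 d to 10 d, Prkag3 (0.96 ± 0.15), Epm2a (0.95 ± 0.17), Phkg2 (0.75 ± 0.17) and Bpgm (0.79 ± 0.18) rose and Ppp1r3b (-0.81 ± 0.18) fell, while Phka2 (-0.19 ± 0.15) and Pygl (-0.46 ± 0.32) did not pass.

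Of 10 genes of the pentose phosphate and hexosamine routes, which branch from glycolysis, Pgd (1.20 ± 0.20) and Taldo1 (0.89 ± 0.14) rose at 3 d and none fell, with a list median of 0.40. Of 13 regulators of the pathway, 3 rose and 5 fell at 3 d, with a median of -0.54. Myc (1.85 ± 0.36), Nr4a3 (1.26 ± 0.34) and the hypoxia factor Hif1a (0.91 ± 0.21) rose, and the nuclear receptor Esrra (-1.16 ± 0.22) and Six4 (-0.95 ± 0.13), a factor of fast fibres, led those that fell. Of these regulators only Six4 still differed from no overload at 10 d (-0.58 ± 0.13, adjusted p = 0.0454).

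Because many members moved together, the 250 bases before their start sites were read from RefSeq (GRCm38.p6). Of the measured members, 32 had an entry, with 43 start sites in all, and Gpd1 and Slc2a4 had none. The 5 stretches below belong to Ldhb, which fell most among members with an entry, to Phkg1, which fell most among the glycogen genes, to Pfkp and Slc2a1, which rose most, and to Fbp2, which had the largest inhibitor effect. Capitals mark the E-box CANNTG, which muscle regulatory factors, Myc and clock proteins can bind, the hypoxia factor core ACGTG, and the MEF2 core, CTA and TAG with any 4 bases between them, on either strand; CACGTG holds an E-box and the hypoxia core at once. Phkg1 is at chr5:129879089-129879338, minus strand, Ldhb at chr6:142507958-142508207, minus strand, Slc2a1 at chr4:119108495-119108744, plus strand, Pfkp at chr13:6648772-6649021, minus strand, and Fbp2 at chr13:62858401-62858650, minus strand, and each is written in the direction of its gene.
Phkg1: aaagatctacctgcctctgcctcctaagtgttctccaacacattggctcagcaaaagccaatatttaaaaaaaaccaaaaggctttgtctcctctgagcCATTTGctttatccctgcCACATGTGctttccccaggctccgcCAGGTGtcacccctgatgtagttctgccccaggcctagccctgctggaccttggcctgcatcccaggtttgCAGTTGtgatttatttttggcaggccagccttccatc
Ldhb: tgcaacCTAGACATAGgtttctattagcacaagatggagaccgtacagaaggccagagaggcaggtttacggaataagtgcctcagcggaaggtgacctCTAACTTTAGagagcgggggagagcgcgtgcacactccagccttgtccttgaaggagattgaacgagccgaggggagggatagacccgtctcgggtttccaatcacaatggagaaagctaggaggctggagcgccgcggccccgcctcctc
Slc2a1: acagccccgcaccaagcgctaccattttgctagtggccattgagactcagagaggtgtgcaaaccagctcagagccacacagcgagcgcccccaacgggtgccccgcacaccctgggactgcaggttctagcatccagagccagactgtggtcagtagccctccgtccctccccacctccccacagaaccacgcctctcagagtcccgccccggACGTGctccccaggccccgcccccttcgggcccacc
Pfkp: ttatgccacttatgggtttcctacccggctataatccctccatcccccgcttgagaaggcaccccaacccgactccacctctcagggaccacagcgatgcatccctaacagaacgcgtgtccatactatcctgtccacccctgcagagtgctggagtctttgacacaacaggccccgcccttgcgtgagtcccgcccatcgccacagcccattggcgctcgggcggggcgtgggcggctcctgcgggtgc
Fbp2: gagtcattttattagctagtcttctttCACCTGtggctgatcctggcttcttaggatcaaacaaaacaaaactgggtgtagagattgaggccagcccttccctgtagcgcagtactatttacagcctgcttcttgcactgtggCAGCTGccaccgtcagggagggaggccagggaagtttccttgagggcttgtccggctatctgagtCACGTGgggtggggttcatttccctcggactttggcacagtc

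The stretch of Phkg1 held 5 E-boxes, of which 2 overlap. That of Ldhb held 2 matches to the loose MEF2 pattern, beginning 244 and 151 bases before the start site. Both have G or C among their middle bases, so neither is a strict MEF2 core. That of Slc2a1 held 1 ACGTG, beginning 36 bases before the start, and that of Pfkp held none of the 3 motifs as searched. The other form of the hypoxia core, GCGTG, was not searched, and the stretches of Pfkp and Ldhb contain it. That of Fbp2 held 3 E-boxes, the nearest of which is a CACGTG beginning 42 bases before the start. The form ACGTG was present in 41.9% of the members' 43 stretches and in 16.6% of all 32851. It was found in 8 of 18 members that fell at 3 d, 2 of 3 that rose and 5 of 11 that did not pass. E-boxes were present in 67.4% and 66.2%, in 14 of 18 members that fell, 0 of 3 that rose and 8 of 11 that did not pass. The loose MEF2 pattern was present in 6.98% and 3.20%, in 3 of 18 members that fell and none of the others. Further motifs searched on both strands were CACGTG (16.3% of members' stretches and 6.02% of all), CAGCTG (23.3% and 13.0%), CACCC (65.1% and 52.0%), GGGCGG (46.5% and 32.7%), TCAGGTT (4.65% and 3.49%), TATAAA (2.33% and 12.4%), TGACTCA (2.33% and 4.46%), AAGGTCA (0% and 4.08%) and TGACCTTTG (0% and 0.426%). These are matches of letters and describe the stretches only.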

How the data were processed

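The values are log2 expression as deposited, in a table covering 41345 probe sets of 10 Affymetrix Mouse Gene 2.1 ST arrays. The authors used RMA, oligo and limma according to the submitters' processing notes, which list no versions. RMA gives all arrays one distribution, and a change common to most RNAs is lost by it. The log2 scale was read from the range, -0.45 to 12.71. Scanner values, strip and scan date were not used here, and the number of arrays limits the precision.

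The array annotation gave 23521 probe sets 1 symbol and 1814 several, and 16010 were not named. Genes (22180, brightest probe set each) were fitted with limma 3.58.1 in R 4.3.3, 1 coefficient per group over all 10 arrays, with 5 residual and 3.58 prior degrees of freedom. Adjusted p-values are Benjamini-Hochberg over all genes of each of 7 comparisons, and values after ± are standard errors unless marked SD. Exact permutation tests enumerated every split of the pools and were checked against SciPy 1.17.1. The steps were tested on simulated data. The alternatives were a common array median, a signal-dependent or robust variance prior, array weights, a filter on dim genes, the mean of probe sets, the compared groups alone, and leaving out each array. The members, gene lists and motifs were chosen with earlier results of these data known. Values in every pool were given for the 20 called members with the largest change and for the uncalled member of each role that changed least at 3 d. Of the neighbouring lists, at most 4 called genes were named per list and comparison. Gapdh, Hif1a, Pdk1, Pdk2, Pdk4, Phka2, Phkg2, Pygb, Pygl, Slc16a7 at 3 d and the marker genes were named after their values were seen.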

Additional observations from a re-analysis of the deposited data

Results flagged for a closer look

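A direct test of 10 d against 3 d of overload called 8 members, and 6.08% of all genes (limma, adjusted p under 0.05, 2 pools per group). Of these calls, those of Gpd1 and Phkg1 alone held whichever array was left out, as given above. On the log2 scale the change at 10 d minus that at 3 d was 1.82 for Gpd1, 1.43 for Phkg1, 1.13 for Pfkfb3, 0.93 for Phka1, 0.68 for Phkb, 0.64 for Pygm, 0.60 for Tpi1 and -1.17 for Slc2a1. The groups of each of these genes did not overlap, as was the case for 48.7% of all genes.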

How the results depend on the processing

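No paired analysis was possible because the labels carry no replicate numbers that pools share across groups. Of the 31 calls at 3 d and between 3 d and 10 d, each was kept with array weights, with the signal-dependent prior and among the brighter genes. Pgam1 was lost at a common median, with the robust prior and with the mean of probe sets. Between 3 d and 10 d the Pgam1 change, which was not called, turned from -0.49 to 0.33 with the mean of probe sets, as its probe sets oppose each other. Fitting only the groups compared, with fewer samples, lost 13 calls and left 2 members between 3 d and 10 d. Over all genes 12.9% were then called at 3 d and 0.911% between 3 d and 10 d.

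With the signal-dependent prior there were 17 members called between 3 d and 10 d (11.0% of all genes), 10 at 10 d against no overload (9.45%), 1 (Fbp2) for the inhibitor at 10 d (0.812%) and 2 for its mean effect (2.10%). Among the brighter genes there were 5 at 10 d (17.1%), 12 between 3 d and 10 d (20.7%) and 1 for the mean effect (1.97%), and at a common median 5 at 10 d (7.10%). For the inhibitor, the main analysis called 0% of all genes at 3 d, 0.104% at 10 d, 0.289% for the mean effect and 0% for the difference. With so few calls of any kind, a count of 0 members for the inhibitor does not set the members apart from other genes. This applies also to the inhibitor counts that follow. Leaving out single arrays gave 14 to 21 members at 3 d (9.68% to 17.4% of all genes), 0 to 1 at 10 d (1.17% to 5.55%), 2 to 8 between 3 d and 10 d (0.983% to 4.94%), 0 to 1 for the mean inhibitor effect, and 0 for the inhibitor at 3 d, at 10 d and for the difference. With the mean of probe sets the Pgam pair reached the smallest p, which alone took the adjusted p of all 6 isoform pairs from 0.0533 or above to 0.0444; the differences were -0.64 for Hk2 and Hk1, -0.82 for Pfkm and Pfkl, -1.45 for Pfkm and Pfkp, -0.65 for Pgam2 and Pgam1, 1.07 for Ldha and Ldhb and -1.04 for Slc2a4 and Slc2a1, and none changed direction under any alternative run. With 1 array left out the differences of the pairs ran from -0.74 to -0.54 for Hk2 and Hk1, -1.10 to -0.53 for Pfkm and Pfkl, -1.60 to -1.31 for Pfkm and Pfkp, -1.02 to -0.58 for Pgam2 and Pgam1, 1.0 to 1.16 for Ldha and Ldhb and -1.48 to -1.20 for Slc2a4 and Slc2a1. At 3 d the smallest called change was 1.44-fold.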
